A study of Mus musculus with 24 samples.

Results

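A set of 10 genes that mark tissue-resident macrophages in mice were followed through sorted fat macrophages: Mrc1, Lyve1, Folr2, Cbr2, Cd209d, Cd209f, Cd209g, Fcna, Mgl2 and Clec10a. They were taken by symbol from the gene column of both deposited count tables, and all 10 were found among the 21063 gene rows that the tables share. The libraries came from epididymal fat of male C57BL/6J mice fed a high-fat diet to a body weight of 38 to 42 g, at 18 to 20 weeks of age. Every group had a high-fat diet. The labels of Warm and Cold give 6 weeks as its start, and those of bFKB1 give no start. Cells labelled M1 macrophage and M2 macrophage were sorted from mice held at 29 to 30 °C (Warm), from mice moved to 18 °C for 7 days and then to 4 °C for 7 days (Cold), and from thermoneutral mice harvested 8 days after 10 mg/kg of bFKB1 given intraperitoneally. bFKB1 is an antibody that activates the receptor complex of the hormone FGF21. Each of these 6 groups holds 3 libraries, and 6 further libraries hold adipose progenitors from Warm and Cold mice. Each Warm or Cold library pools cells of 5 mice, whereas the labels of bFKB1 name no pooling. The sort gates are not in the labels, no vehicle group is among the samples, and the Warm libraries are the control of both treatments. The bFKB1 libraries form a table of their own, so the treatment cannot be told apart from whatever else sets that table apart.

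Resident macrophages line the vessels and connective tissue of most organs, where they take up debris, glycoproteins and hyaluronan. Much of this uptake runs through C-type lectin receptors, which bind sugars on glycoproteins and microbes and carry them inside. The 10 genes fall into 4 roles. Mrc1 (the mannose receptor CD206) and Lyve1 (a hyaluronan receptor shared with lymphatic endothelium) are uptake receptors. Folr2 (the folate receptor beta), Cbr2 (a carbonyl reductase) and Fcna (ficolin A, a secreted lectin that starts the lectin pathway of complement) are resident macrophage markers that are not C-type lectins. Cd209d, Cd209f and Cd209g belong to the mouse family related to DC-SIGN, and Mgl2 and Clec10a are the 2 mouse galactose-type lectins (CD301b and CD301a).

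The near relatives among these genes lie side by side in the genome. In GENCODE M21 on GRCm38, Mgl2 (chr11:70130329-70137550) and Clec10a (chr11:70156197-70170834) are neighbours on the plus strand, and Cd209d (chr8:3871824-3878555, minus strand), Cd209f (chr8:4102787-4105835, minus strand) and Cd209g (chr8:4134098-4137707, plus strand) lie in 1 cluster. The coding sequences of Mgl2 and Clec10a were 91.1% identical over 922 aligned bases, and those of Cd209f and Cd209g 89.2% over 582, against 69.9% for Cd209d with Cd209f. The longest run that Mgl2 and Clec10a share, 183 coding bases (bases 550 to 732 of Mgl2 and 502 to 684 of Clec10a), is shown because reads inside it belong to either gene:
Mgl2 and Clec10a: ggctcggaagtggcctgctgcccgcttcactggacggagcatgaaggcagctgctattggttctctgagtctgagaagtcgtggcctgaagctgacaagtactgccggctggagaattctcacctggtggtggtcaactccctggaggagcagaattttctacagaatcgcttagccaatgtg
Of all windows of 75 bases along the transcripts, 7.95% of those of Mgl2 and 4.95% of those of Clec10a also occur in the other gene. For Cd209f and Cd209g these shares were 34.1% and 33.2%, for Cbr2 9.93% were shared with the gene model Gm11771, and for the other 5 genes no window was shared. How reads in such windows were counted is not given in the sources used here, so the split between Cd209f and Cd209g in particular is uncertain.

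The kinship of Cd209f and Cd209g extends to the bases before their RefSeq starts. RefSeq promoter entries on GRCm38.p6, counted from the first transcribed base, exist for 8 of the 10 genes; Lyve1 and Clec10a have no entry. The 3 promoters of the DC-SIGN family are shown because the ratio of Cd209d to Cd209f, given below, was lower under both treatments. No test of that ratio passed after adjustment (adjusted p = 0.109 in each, exact permutation test). Capitals mark the bases of a run that Cd209f and Cd209g share exactly. The stretches end before the first base of the protein-coding GENCODE models, although a retained-intron model of Cd209g starts further upstream and covers the stretch shown for it. They end at base -72 for Cd209f (chr8:4105836-4106014, minus strand) and Cd209d (chr8:3878571-3878749, minus strand) and at base -85 for Cd209g (chr8:4134486-4134651, plus strand), and each starts at base -250.
Cd209f: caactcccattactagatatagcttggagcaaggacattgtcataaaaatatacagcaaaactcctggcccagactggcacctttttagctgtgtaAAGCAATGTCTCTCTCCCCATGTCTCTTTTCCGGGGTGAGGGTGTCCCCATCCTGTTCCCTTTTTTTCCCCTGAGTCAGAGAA
Cd209g: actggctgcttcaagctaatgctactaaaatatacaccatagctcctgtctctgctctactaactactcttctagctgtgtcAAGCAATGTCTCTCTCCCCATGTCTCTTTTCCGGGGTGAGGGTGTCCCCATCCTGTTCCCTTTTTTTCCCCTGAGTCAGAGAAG
Cd209d: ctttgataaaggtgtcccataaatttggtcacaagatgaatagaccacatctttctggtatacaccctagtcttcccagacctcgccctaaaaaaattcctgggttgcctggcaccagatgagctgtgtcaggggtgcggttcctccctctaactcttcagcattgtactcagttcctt
In full the shared run is 154 bases long, from base -154 to -1 of Cd209f and from -168 to -15 of Cd209g. The longest run shared by any other pair of these promoters was 12 bases. Inside the capitals stand the letters TGAGTCA, an AP-1-type motif (TGACTCA on the other strand), starting at base -83 of Cd209f and at -97 of Cd209g. This motif was picked after the sequences had been read, and it occurs in 4.46% of the 32851 promoter entries and, among the members, also in 1 of the 2 Folr2 entries at base -74. The MAF half-site TGCTGAC was found in the Fcna promoter at base -107 and in 3.81% of all entries. A STAT6 site, TTC and GAA with 4 free bases between them (5.85% of all entries), the letters GAGGAAGT of a PU.1 site (2.44%) and a longer MAF recognition element (0.323%) were found in none of the members' windows. No 2 of these matches overlapped, and a match or its absence is a description of these windows only.

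Macrophage libraries held 14.4 to 24.8 M gene counts, and levels are given as CPM, the counts of a gene scaled to 1 M counts of its library. No 2 libraries had identical counts, and replicates differed by more than counting noise, with a chi-square per degree of freedom of at least 3.97. In bulk libraries, fewer cells of a type and less RNA per cell cannot be told apart. Macrophage markers were plentiful: a list of 15 core macrophage genes summed to 14826 to 26958 CPM in the macrophage libraries. A list of 12 dendritic cell genes summed to 256 to 484 CPM in M1 libraries and 266 to 350 in M2. In Cold, 7 of these 12 were higher in M1 than in M2 and 2 lower. There 54.7% of all genes were called in either direction, 26.9% of all genes as lower. Dpp4, among those higher, is also on the progenitor list below. In M1, 5 of the 12 dendritic cell genes rose in the cold and 0 fell, where 22.4% of all genes were called higher. Under bFKB1, 1 rose and 6 fell in M1 (12.2% and 9.45% of all genes). The part of such cells in the M1 libraries was not tested. Progenitor RNA differed between groups. A list of 15 progenitor genes made up 1.81% to 5.10% of the counts in Cold M1, 0.353% to 1.27% in Warm M1, 0.387% to 1.13% in bFKB1 M1 and at most 0.513% in M2, against 13.5% to 17.2% in progenitors. The 10 members were low in progenitors, at most 20.5 CPM in any of the 6 libraries. In Warm, progenitors held at most 0.68% of the M2 mean of any member (Folr2). Beside the M1 mean the share was larger for members scarce in M1. It was 42.5% for Cd209f, 38.1% for Cd209g, 20.3% for Fcna and 13.7% for Lyve1. Lyve1 also marks lymphatic endothelium, whose markers differed in level. Ccl21a had no count in any macrophage library and Prox1 at most 0.733 CPM. Pdpn stood at a mean of 24.9 CPM in Cold M1, 7.76 in Warm M1 and 9.51 in bFKB1 M1, against 4.04 in Cold M2. Its rise in Cold M1 came alongside progenitor RNA, whose part in it was not tested. Of 13 endothelial genes tested in Cold against Warm M1, 1 rose (Pdpn) and 1 fell (Tie1), with a median log2 fold change of -0.64. Over all genes, 22.4% were called higher and 21.5% lower. The part of lymphatic endothelium in the Lyve1 level was not tested.

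All 10 genes were lower in M1 than in M2 in every condition, and in none did the libraries of the 2 populations overlap. The depth of that difference varied widely. In Warm mice, the M1 level was 0.611% of the M2 level for Cd209g, 0.615% for Cd209f, 1.04% for Lyve1, 1.82% for Fcna and 2.41% for Cbr2. It was 5.78% for Cd209d and 5.96% for Folr2, and it reached 25.3% for Clec10a, 29.6% for Mrc1 and 51.7% for Mgl2. Thus the galactose-type lectins and the mannose receptor were plentiful in both populations, while Cd209f and Cd209g stayed below 1% of their M2 level in every M1 library. edgeR's quasi-likelihood test called all 10 lower in M1 in Warm, Cold and bFKB1, where 45.2%, 54.7% and 47.6% of all genes tested were called, 22.8%, 26.9% and 24.6% of all genes as lower. The smallest of these differences in Warm was that of Mgl2, -1.04 ± 0.29 on the log2 scale (SE, 3 libraries per group, edgeR adjusted p = 0.0132), and the deepest that of Cd209f, -7.43 ± 0.29 (edgeR adjusted p = 3.19e-08). Mrc1 may itself have been a sort marker, as may Itgax (the integrin CD11c), which was higher in M1, at 728 to 828 CPM in the Warm libraries against 75.2 to 125 in Warm M2. Libraries without overlap were found for 59.6%, 60.5% and 59% of all genes in the 3 conditions.

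**Figure D1:**
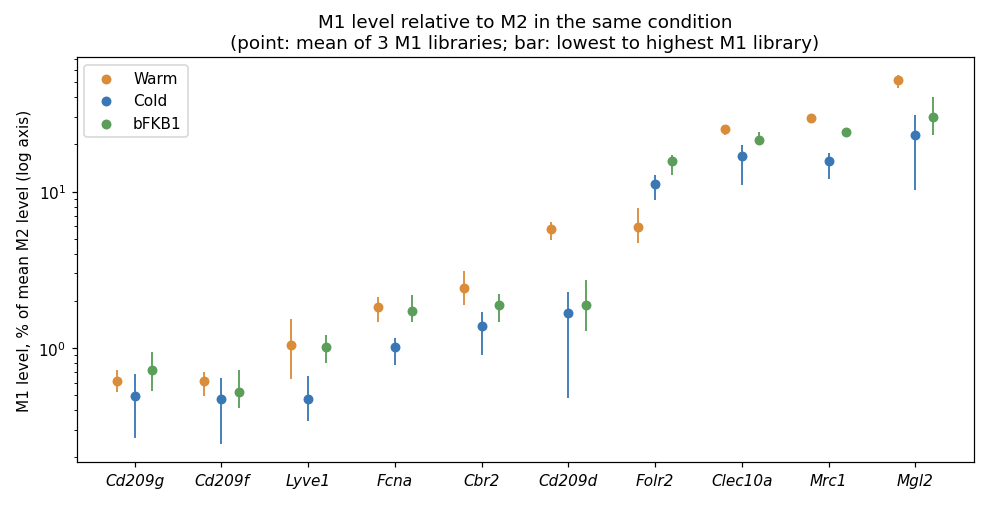
M1 level of each gene as a percentage of the mean M2 level in the same condition, on a log axis. Points are means of 3 M1 libraries and bars run from the lowest to the highest M1 library; in Warm the genes span 0.611% (Cd209g) to 51.7% (Mgl2).

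Set per kilobase of the longest coding transcript, so that genes can be compared, Folr2 was the most abundant member in Warm M2 at 1494 ± 187 CPM per kb (SD, n = 3). Mrc1 followed at 1072 ± 22.6, Cbr2 at 939 ± 117, Mgl2 at 636 ± 38.8 and Fcna at 559 CPM per kb. Cd209g was the least abundant at 95.6 ± 18.1 CPM per kb. In Warm M1 the order was another one. Mgl2 (329 ± 31.3 CPM per kb) and Mrc1 (317 ± 4.00) stood at the top, ahead of Folr2 (89.0 ± 24.8) and Clec10a (85.3 ± 6.62), and Cd209g was again the lowest at 0.584 ± 0.102.

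Cold moved the members in M1 in opposite directions. Folr2 and Fcna rose, and 5 members fell, Mgl2, Cd209d, Lyve1, Mrc1 and Cbr2. Clec10a, Cd209f and Cd209g did not pass the test. Of 12981 genes tested in Cold against Warm M1, 43.9% were called (22.4% higher and 21.5% lower), so a count of 7 of 10 is not far from the background, and sizes and libraries say more than the count. The median log2 fold change was -0.53 for the members and -0.03 for all genes tested.

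The deepest fall was that of Mgl2, the galactose-type lectin CD301b. Warm M1 libraries held 558, 479 and 575 CPM of Mgl2, and Cold M1 libraries 48.5, 133 and 147 CPM. Every Cold library lay below every Warm library, and the log2 fold change was -2.32 ± 0.30 (SE, edgeR adjusted p = 0.000456). Its neighbour Clec10a measured 209, 207 and 181 CPM in Warm M1 and 107, 190.3 and 190.3 in Cold M1. These groups overlapped, and the log2 fold change of -0.31 ± 0.17 did not pass the test (edgeR adjusted p = 0.160).

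Among the DC-SIGN relatives, Cd209d behaved differently from the other two in M1. Cd209d went from 24.7, 19.1 and 23.3 CPM in Warm M1 to 1.65, 7.63 and 7.84 CPM in Cold M1. No libraries overlapped, and the log2 fold change was -2.001 ± 0.40 (SE, edgeR adjusted p = 0.00291). Cd209f measured 1.65 to 2.35 CPM in Warm M1 and 1.21 to 3.23 CPM in Cold M1. Cd209g stood at 0.581 to 0.813 and 0.390 to 0.999 CPM. Both thus lay close to the low end of what these libraries count, with log2 fold changes of 0.16 ± 0.31 for Cd209f and 0.06 ± 0.41 for Cd209g.

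The uptake receptors fell by less. Mrc1 was even across Warm M1, at 1713, 1717 and 1678 CPM, and stood at 756, 1118 and 1079.7 CPM in Cold M1. The Cold libraries were all lower, and the log2 fold change was -0.81 ± 0.12 (SE, edgeR adjusted p = 0.000743). Lyve1 went from 7.65, 12.2 and 5.09 CPM to 3.38, 6.50 and 4.13 CPM, groups that overlapped, with a log2 fold change of -0.85 ± 0.30 (edgeR adjusted p = 0.0394). The Lyve1 call was lost when any of 4 of the 6 libraries was left out. Without Warm M1 library 2 it was -0.46 (edgeR adjusted p = 0.221), and on a scale set by genes low in progenitors it was -0.55 (edgeR adjusted p = 0.167). The markers that are not C-type lectins divided. Cbr2 stood at 19.6, 32.4 and 23.2 CPM in Warm M1 and at 10.1, 18.8 and 16.8 CPM in Cold M1, with a log2 fold change of -0.74 ± 0.21 (edgeR adjusted p = 0.0168). Its groups did not overlap, and the call was lost without Warm M1 library 2 (-0.50, edgeR adjusted p = 0.0791) and on the scale set by genes low in progenitors (-0.44, edgeR adjusted p = 0.0981).

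Folr2 and Fcna rose. Folr2 climbed from 84.1, 141 and 96.5 CPM in Warm M1 to 174, 231 and 250.4 CPM in Cold M1. Fcna climbed from 14.4, 16.3 and 11.3 CPM to 21.0, 31.1 and 30.2 CPM. For both, every Cold library lay above every Warm library, and the log2 fold changes were 1.02 ± 0.17 for Folr2 (SE, edgeR adjusted p = 0.00133) and 0.95 ± 0.18 for Fcna (edgeR adjusted p = 0.00238). In all, 6 of the 10 members had no overlap between Cold and Warm M1, against 51.7% of all genes tested.

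Progenitor RNA moved with the cold in M1. The Cold M1 library with the most of it, library 1 at 5.10%, was also the lowest of the 3 Cold M1 libraries for all 10 members. The part of progenitor RNA in these changes was not tested beyond the values without that library and on another scale. With library 1 left out, Mgl2 changed by -1.98 and Cd209d by -1.57, both still called, and 5 of the 7 calls in M1 held whichever of the 6 libraries was left out. On the scale set by genes low in progenitors, which moved the median of all genes by 0.35, Mgl2 changed by -2.03, Mrc1 by -0.49 and Folr2 by 1.33, and all 3 were still called.

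In M2 macrophages cold changed 2 of the 10 members, Fcna upward and Mgl2 downward, where 10.1% of genes tested were called (4.41% higher and 5.69% lower). Fcna stood at 909, 609 and 787 CPM in Warm M2 and at 2473, 3043 and 2536 CPM in Cold M2. The groups were far apart, and the log2 fold change of 1.74 ± 0.17 (SE, edgeR adjusted p = 0.000467) was called without each library in turn. Mgl2 stood at 971, 1053 and 1096 CPM in Warm M2 and at 424, 499 and 505 CPM in Cold M2. Its groups did not overlap either, with a log2 fold change of -1.19 ± 0.29 (edgeR adjusted p = 0.0282). That call rested on all 6 libraries, since leaving out any 1 of them gave -1.11 to -1.25 with an edgeR adjusted p of 0.0584 to 0.0899.

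The other 8 members did not pass the test in M2. Cd209f measured 370.3, 263 and 373 CPM in Warm M2 and 427, 548 and 520.1 CPM in Cold M2, higher in every Cold library, with a log2 fold change of 0.50 ± 0.20 (edgeR adjusted p = 0.144). Clec10a was also higher in every Cold library, 854 to 1037 against 725 to 829 CPM, with a log2 fold change of 0.23 ± 0.17 (edgeR adjusted p = 0.452). Folr2, the gene that rose in M1, stood at 1966, 1543 and 1888 CPM in Warm M2 and 1848, 2019 and 2022 CPM in Cold M2. These overlapped, with a log2 fold change of 0.06 ± 0.17. Mrc1, Lyve1, Cbr2, Cd209d and Cd209g overlapped between Cold and Warm M2 too, with log2 fold changes from -0.25 (Cd209d) to 0.32 (Cd209g). Libraries did not overlap for 4 of the 10 members, against 40% of all genes tested.

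Whether the effect of cold differed between the populations was tested directly. Of the 10 members, Mrc1 alone passed: its cold effect was higher in M2 than in M1 by 0.87 ± 0.17 on the log2 scale (edgeR adjusted p = 0.0384), in a test that called 2.31% of genes. In Cold M2, Mrc1 stood at 5750.1, 6676 and 6455 CPM, against 5622, 5819.9 and 5843 CPM in Warm M2. The calls of this test moved with the choice of libraries. Mrc1 lost its call when any of 7 of the 12 libraries was left out, while its difference stayed between 0.73 and 0.96. For Folr2 the difference was -0.96 ± 0.24 (edgeR adjusted p = 0.0543) and for Cd209d 1.75 ± 0.52 (edgeR adjusted p = 0.0779), and both were called in a fit of all 18 macrophage libraries (edgeR adjusted p = 0.0297 and 0.0440).

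**Figure D2:**
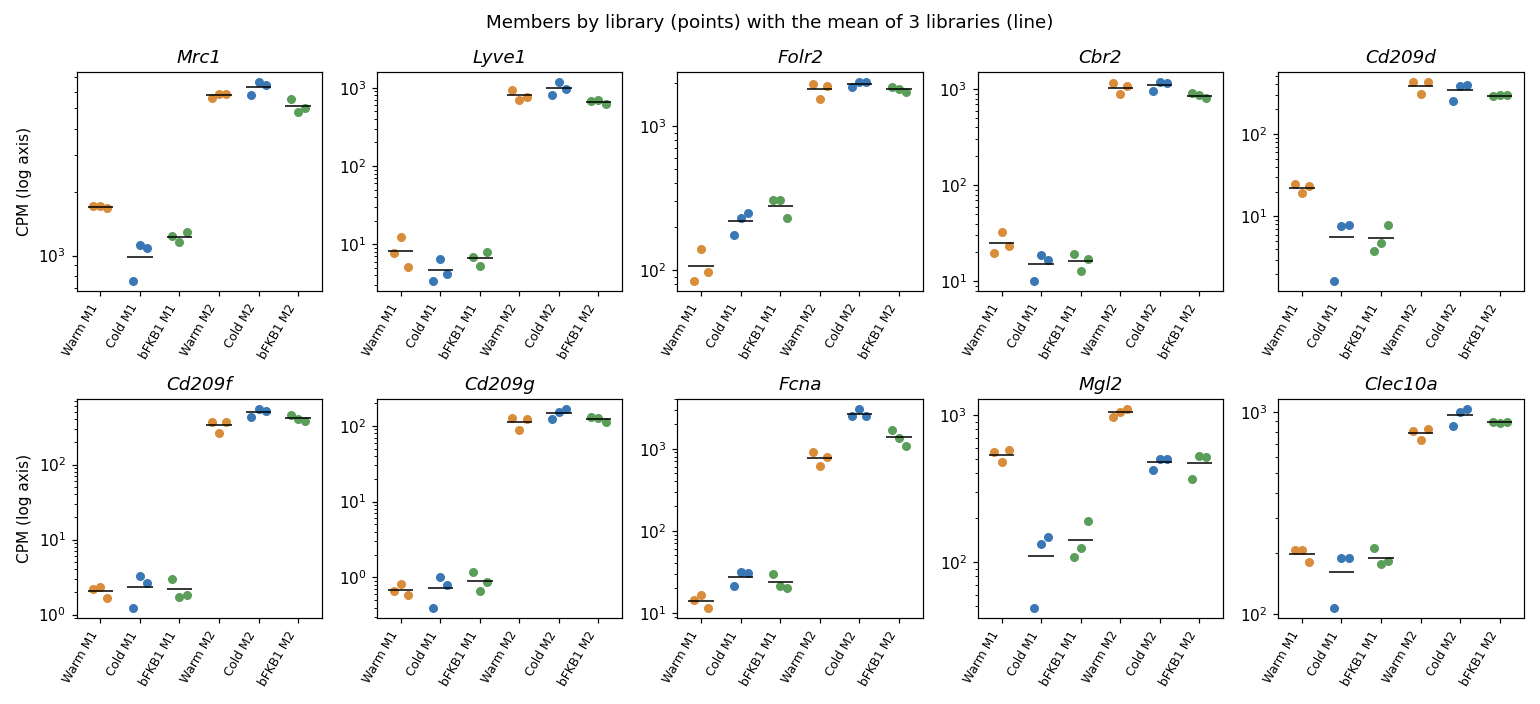
Level of each gene in CPM on a log axis, 1 panel per gene, in the 6 macrophage groups. Points are libraries and lines the mean of 3; Mgl2 falls from 537 to 109.6 CPM between Warm and Cold M1 while Clec10a stays between 107 and 213 CPM in all M1 libraries.

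The antibody bFKB1 was compared with the same Warm libraries, so the changes below share their control with those of cold, and only the values of each treatment are set side by side. In M1, 2 members rose and 4 fell, where 21.6% of genes tested were called (12.2% higher and 9.45% lower). Folr2 measured 305, 307 and 230.0 CPM under bFKB1, all above the Warm libraries, a log2 fold change of 1.40 ± 0.17 (SE, edgeR adjusted p = 0.000845). Mgl2 measured 108, 125 and 189 CPM, all below the Warm libraries, a log2 fold change of -1.92 ± 0.21 (edgeR adjusted p = 0.000668). Cd209d measured 3.78, 4.73 and 7.94 CPM, also all below, a log2 fold change of -2.02 ± 0.24 (edgeR adjusted p = 0.000845). These 3 genes kept their calls whichever of the 6 libraries was left out.

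Smaller changes in bFKB1 M1 were those of Mrc1, Fcna and Cbr2. Mrc1 stood at 1241, 1159 and 1293 CPM, below all Warm libraries, with a log2 fold change of -0.46 ± 0.07 (edgeR adjusted p = 0.00168), which held without each library in turn. Fcna stood at 30.0, 21.0 and 20.1 CPM, with a log2 fold change of 0.77 ± 0.22 (edgeR adjusted p = 0.0286). Cbr2 stood at 19.2, 12.7 and 16.9 CPM, with a log2 fold change of -0.61 ± 0.18 (edgeR adjusted p = 0.0338). The calls of Fcna and Cbr2 were each lost without 3 of the 6 libraries, reaching an edgeR adjusted p of 0.121 in both cases. On the scale set by genes low in progenitors neither was called (edgeR adjusted p = 0.0501 for Fcna and 0.0681 for Cbr2). On a scale set by macrophage core genes Fcna was not called either (edgeR adjusted p = 0.0696), whereas Clec10a was, at -0.31 (edgeR adjusted p = 0.00923). With the replicate number as a block Cbr2 was at -0.62 (edgeR adjusted p = 0.0581). Lyve1 (6.88, 5.34 and 8.04 CPM) and Clec10a (213, 176 and 182 CPM) overlapped with Warm and did not pass the test, nor did Cd209f and Cd209g. Of the 10 members, 6 had no overlap between bFKB1 and Warm M1, against 39.5% of all genes tested.

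In M2, Fcna rose and Mgl2 fell under bFKB1, where 8.26% of genes tested were called (5.25% higher and 3.01% lower). Fcna measured 1707, 1364 and 1079 CPM, all above the Warm libraries, with a log2 fold change of 0.83 ± 0.20 (edgeR adjusted p = 0.0281). That call was lost without any of 4 of the 6 libraries, with log2 fold changes of 0.67 to 0.98 over the 6. Mgl2 measured 366, 524 and 516 CPM, all below the Warm libraries, and its log2 fold change of -1.16 ± 0.21 (edgeR adjusted p = 0.00892) was called without each library in turn. The other 8 members ranged from -0.42 (Cd209d) to 0.28 (Cd209f) and did not pass. Libraries did not overlap for 7 of the 10 members, against 35.8% of all genes tested.

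The test of a difference between the bFKB1 effects in M2 and M1 called no gene with edgeR, where 976 genes had an unadjusted p under 0.05, and 77 with DESeq2. For Folr2 the difference was -1.42 ± 0.24 (edgeR adjusted p = 0.144) and for Cd209d 1.61 ± 0.31 (edgeR adjusted p = 0.190), and both were among the genes that DESeq2 called.

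**Figure D3:**
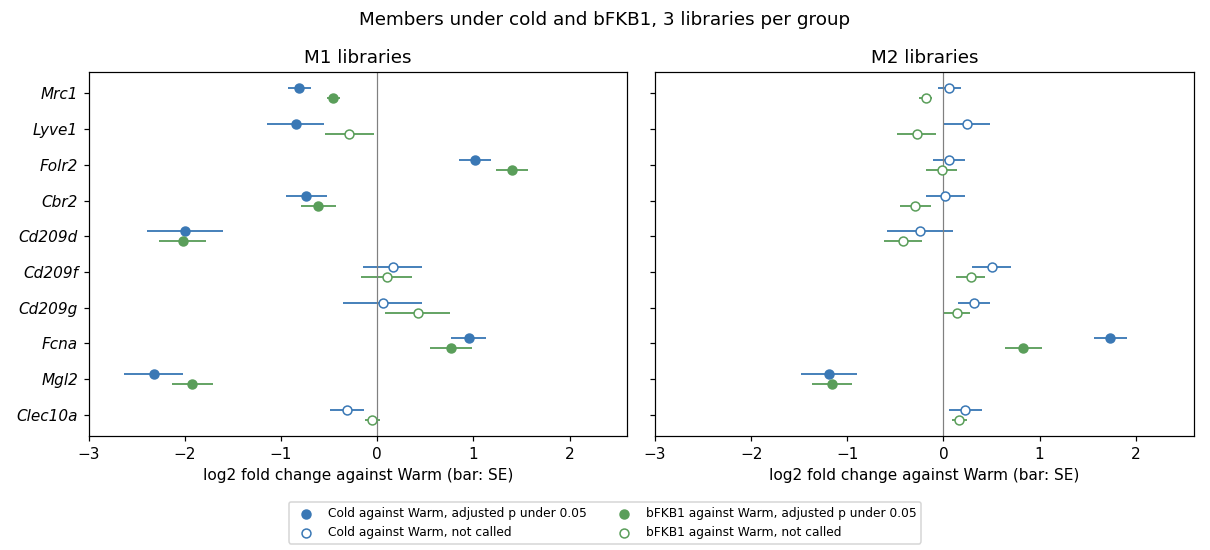
Log2 fold change of each gene against Warm in M1 (left) and M2 (right), with bars of 1 SE, for cold and for bFKB1. Filled points passed an edgeR adjusted p of 0.05; in M1 the lowest values are those of Mgl2 and Cd209d, and both treatments share their Warm libraries.

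Set against each other in a fit of all 18 macrophage libraries, bFKB1 and Cold differed for few members. In M1, where 26.3% of genes were called, Mrc1 was higher under bFKB1 by 0.34 ± 0.10 on the log2 scale (edgeR adjusted p = 0.0242). On a scale set by macrophage core genes, which moved the median of all genes by -0.41, this turned to -0.051, and on the scale set by genes low in progenitors it was 0.13 (edgeR adjusted p = 0.225). In M2, where 4.4% of genes were called, Fcna was lower under bFKB1, with a log2 difference of -0.90 ± 0.19 (edgeR adjusted p = 0.0224), and no library overlapped. That call was lost without any of 4 of the 6 libraries. Mgl2 stood at 469 ± 89.0 CPM under bFKB1 and 476 ± 45.0 under Cold in M2 (SD, n = 3), a log2 difference of 0.04 ± 0.29.

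Near relatives were compared within each library, as a ratio of counts per kilobase, which no scaling between libraries touches. Mgl2 exceeded Clec10a in every Warm library. The Mgl2 to Clec10a ratio was 3.81, 3.30 and 4.52 in Warm M1, 0.648, 0.998 and 1.10 in Cold M1, and 0.719, 1.01 and 1.48 in bFKB1 M1. In M2 it was 1.71, 2.07 and 1.89 in Warm, 0.708, 0.709 and 0.695 in Cold, and 0.587, 0.849 and 0.818 under bFKB1. In M2 the order of the 2 lectins was thus inverted in all 6 treated libraries, and neither treatment overlapped with Warm in either population. The log2 difference of the ratio was -2.10 for cold and -1.91 for bFKB1 in M1, and -1.42 and -1.35 in M2. Each reached p = 0.1 in a two-sided exact permutation test, the smallest that 3 against 3 libraries allow, which was 0.109 after Benjamini-Hochberg adjustment over the 12 ratio tests made.

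The Cd209d to Cd209f ratio fell as well. In M1 its geometric mean was 13.9 in Warm, 2.74 in Cold and 3.17 under bFKB1, and in M2 it was 1.49, 0.875 and 0.919. The Warm M2 libraries were nearly equal at 1.48, 1.51 and 1.49, and all 6 treated M2 libraries lay below them, from 0.768 to 1.01. Again each difference had p = 0.1 by the exact permutation test. The Cd209g to Cd209f ratio, of 2 genes that share sequence as shown above, ran from 0.279 to 0.482 over the 18 libraries. Its log2 difference from Warm was -0.09 in Cold M1, where libraries overlapped (p = 0.4, exact permutation test), 0.32 in bFKB1 M1, -0.19 in Cold M2 and -0.14 in bFKB1 M2. In those last 3 comparisons libraries did not overlap and p was 0.1 by the exact permutation test, as for the other ratios, with smaller differences. How reads that fit both genes were counted also bears on this ratio.

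**Figure D4:**
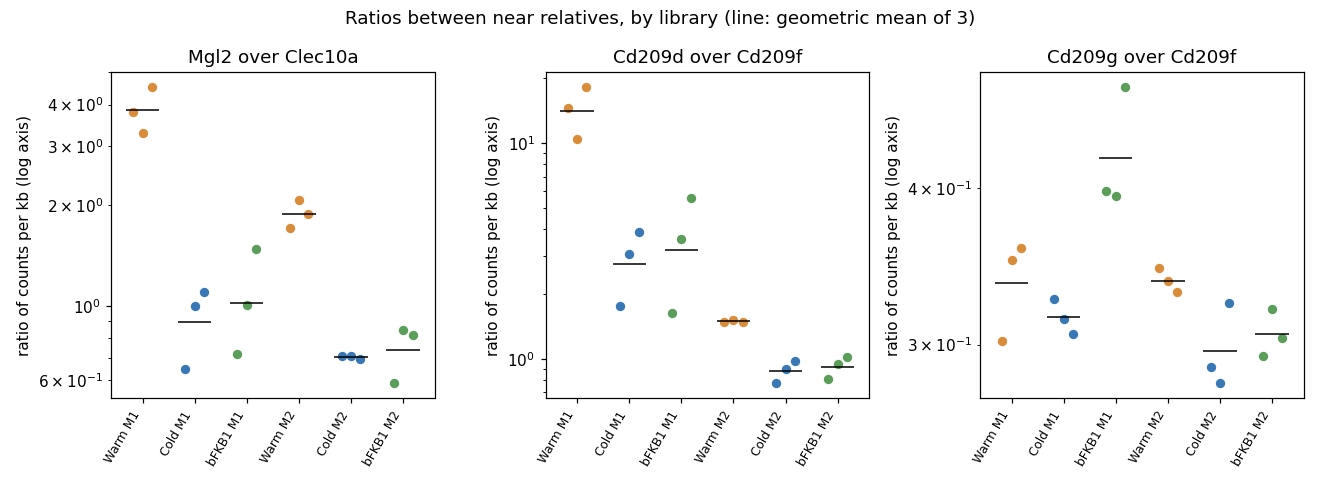
Ratio of counts per kilobase between near relatives in each macrophage library, on log axes, with lines at the geometric mean of 3 libraries. The Mgl2 to Clec10a ratio is 3.85 in Warm M1 and 0.894 in Cold M1, and 1.89 in Warm M2 and 0.704 in Cold M2.

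Other lectins were read from a list of 35 relatives, of which 30 passed the filter on low counts. In M1, 12 rose and 10 fell in the cold, and 7 rose and 10 fell under bFKB1; in M2 the counts were 3 and 2, and 4 and 2. Over all genes tested, 22.4% were called higher and 21.5% lower in Cold M1, 12.2% and 9.45% in bFKB1 M1, 4.41% and 5.69% in Cold M2, and 5.25% and 3.01% in bFKB1 M2, so the M2 counts of lectins under cold are near the background. The same percentages are the background of the interleukin 4, monocyte and other resident macrophage lists that follow. The remaining DC-SIGN relatives, which like Asgr2 and Mrc2 were picked out after their values were seen, were lower in M1 where they were called. Cd209c went from 15.5 CPM in Warm M1 to 4.83 in Cold (log2 fold change -1.71, edgeR adjusted p = 0.00661) and 4.03 under bFKB1 (-1.93, edgeR adjusted p = 0.000858). Cd209e went from 2.30 CPM in Warm M1 to 0.653 in Cold (-1.84, edgeR adjusted p = 0.00322) and 0.236 under bFKB1 (-3.24, edgeR adjusted p = 0.000225). Cd209a, which is also a gene of monocyte-derived dendritic cells, changed by -1.09 in Cold M1 (edgeR adjusted p = 0.0594) and by -1.28 under bFKB1 (edgeR adjusted p = 0.00387). Cd209b (SIGN-R1 in mice) shared the M2 pattern of Cd209f and Cd209g, at 2.97 CPM in Warm M1 and 179 in Warm M2. The hepatic lectin relative Asgr2 fell in M1 under both, by 1.38 in the cold (edgeR adjusted p = 0.00247) and by 1.65 under bFKB1 (edgeR adjusted p = 0.00105). Mrc2, the collagen receptor of the mannose receptor family, was higher in Cold M1 at 287 against 28.4 CPM (3.36, edgeR adjusted p = 0.00197), alongside progenitor RNA. The part of progenitor RNA in that rise was not tested.

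Genes of the response to interleukin 4 were counted over a list of 24. In M1, 2 rose and 11 fell in the cold, with a median log2 fold change of -0.33, and 0 rose and 8 fell under bFKB1, with a median of -0.42. In M2, 6 fell in the cold and 5 under bFKB1, and none rose under either. The receptor chain Il4ra fell in M2 by 0.86 in the cold (291 against 506 CPM, edgeR adjusted p = 0.000534) and by 0.57 under bFKB1 (343 CPM, edgeR adjusted p = 0.000673). Retnla, the secreted protein RELM alpha, stood at 1065 CPM in Cold M1 against 4175 in Warm M1 (-2.003, edgeR adjusted p = 0.000275). The ribonuclease gene Rnase2a fell in M2 from 183 CPM to 21.6 in the cold (-3.16, edgeR adjusted p = 2.54e-05) and to 19.3 under bFKB1 (-3.26, edgeR adjusted p = 0.000109). Of a list of 12 monocyte genes, 11 were tested in M2, and 3 fell and none rose under each treatment. Over all genes tested, 5.69% were called lower in Cold M2 and 3.01% in bFKB1 M2. In M2 the list summed to 2251 to 3260 CPM in Warm, 579 to 708 in Cold and 755 to 1454 under bFKB1. Most of each sum was Fn1, the fibronectin gene, at a mean of 2462, 595 and 983 CPM. The monocyte chemokine receptor Ccr2 stood at 231, 35.2 and 95.2 CPM. In M1 the list summed to 10207 to 13551 CPM in Warm, 6813 to 9161 in Cold and 5376 to 11575 under bFKB1. There 3 of its genes rose and 3 fell in the cold, and none was called under bFKB1. The list is not particular to monocytes: progenitors held 8792 to 14254 CPM of it. The part of monocytes in the fall of Mgl2 was not tested.

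Other resident macrophage genes, a list of 25, followed the members in their M1 to M2 difference: 24, 25 and 25 were lower in M1 in Warm, Cold and bFKB1, and none was higher. In Cold M1, 12 rose and 6 fell; in bFKB1 M1, 11 rose and none fell; in M2, 8 rose and 2 fell in the cold, and 3 rose and 1 fell under bFKB1. Slc40a1, the iron exporter ferroportin, rose in M2 from 48.1 to 289 CPM in the cold (2.52, edgeR adjusted p = 0.000282) and to 151 CPM under bFKB1 (1.63, edgeR adjusted p = 0.00134). Vsig4, a complement receptor, rose in Cold M2 from 35.7 to 82.9 CPM (1.15, edgeR adjusted p = 0.000282). Both genes also rose in Cold M1, from lower levels. Slc40a1 went from 2.12 to 18.9 CPM there (3.13, edgeR adjusted p = 9.57e-05) and Vsig4 from 1.51 to 6.04 CPM (1.98, edgeR adjusted p = 8.65e-05). The cold effect on Vsig4 in M2 minus M1 was -0.83 (edgeR adjusted p = 0.0388). The scavenger receptor Marco rose in M2 from 3.81 to 19.9 CPM in the cold (2.32, edgeR adjusted p = 0.00211) and to 13.3 CPM under bFKB1 (1.78, edgeR adjusted p = 0.00795). Ccl8 fell in bFKB1 M2 from 471 to 211 CPM (-1.18, edgeR adjusted p = 0.00364). F13a1, a coagulation factor chain made by macrophages, fell in Cold M1 from 547 to 134 CPM (-2.05, edgeR adjusted p = 0.000133).

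For each member the 3 genes with the most similar profile over the 6 group means were sought among 10204 genes, by the root mean square difference of the centred log2(CPM + 1) means. The 6 means come from 18 libraries and share their depth, so these are descriptions. Cd209f was nearest to Lyve1 (0.30), and Cd209g to Cd209b (0.24). Cbr2 was nearest to Ednrb, an endothelin receptor (0.17), and Folr2 to Stab1, the scavenger receptor stabilin-1 (0.18). Mrc1 was nearest to Dab2, an endocytic adaptor (0.12), and Clec10a to the urea transporter Slc14a1 (0.07). For Mgl2, as for Mrc1, Folr2 and Clec10a, no member was among the 3 nearest genes. Those of Mgl2 were Rasgrp4, an activator of Ras (0.37), Gfra2, a receptor for neurturin (0.39), and Lifr, the receptor of leukaemia inhibitory factor (0.42). By their group means, these 3 genes were all lower in both treatments in both populations. Cd209d was nearest to Cbr2 (0.52) and Fcna to Cd209g (0.49), the largest distances to a nearest gene among the 10.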

How the data were processed

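RNA-seq libraries of sorted macrophages and adipose progenitors were analysed. The authors deposited raw gene counts as whole numbers, in a table for Warm and Cold and another for bFKB1. The submitters' processing notes name the genome GRCm38, GSNAP and CASAVA 1.8, and for Warm and Cold also SAMtools; which tool counted reads, and on which annotation, is not stated there. Poly-A selection is stated for Warm and Cold only. Columns were matched through the sample descriptions; replicate numbers follow the titles, which for bFKB1 differ from the numbers in the characteristics. Rows with a date in place of a symbol, 27 holding 0.148% to 0.192% of a library, were left out. Nothing says that the bFKB1 libraries came from separate mice, so p-values measure the spread between these libraries.

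Counts were fitted with edgeR 4.0.16 in R 4.3.3 (filterByExpr, TMM, quasi-likelihood F-test, Benjamini-Hochberg over all genes tested, threshold 0.05). Warm and Cold macrophages (12981 genes tested), Warm and bFKB1 macrophages (12734) and all 18 macrophage libraries (13086, for bFKB1 against Cold) were 3 fits with 1 mean per group. A gene rose or fell where its adjusted p was under 0.05. An SE is the log2 fold change over the square root of its F. CPM is counts over the library total; precision is limited by depth and by 3 libraries a group. Lengths and coding sequences are of GENCODE M21, which may not be the authors' annotation. Ratios had 0.5 counts added. The fit was also run on simulated counts, with equal group means but for a set of changed genes. That run does not bear on shifts in composition such as progenitor RNA. The members and the gene lists were chosen with earlier results of these data known. Named were all members, Itgax, up to 4 called genes with the smallest p per list and comparison, some of which are given, and the 3 nearest genes per member. Markers of lymphatic endothelium and some lectins (Cd209a, Cd209c, Cd209e, Asgr2, Mrc2) were named outside this rule, after their values were seen. Alternatives were RLE scaling, no filter, the replicate number as a block, scaling on 2462 genes low in progenitors, scaling on macrophage core genes, DESeq2 1.42.0, other sets of libraries in the fit and each library left out. Libraries of the same number deviated together for M1 and M2 in Warm (correlation of deviations 0.14 to 0.25) and under bFKB1 (0.07 to 0.34). The same held for bFKB1 and Cold in M1 (0.18 to 0.59), which are different treatments. They deviated apart for M1 and M2 in Cold (-0.31 to -0.03), and Cold and Warm M1 went both ways (-0.46 to 0.55). Whether the number pairs libraries is therefore not settled, and it served as a block only among the alternatives.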

Additional observations from a re-analysis of the deposited data

Results flagged for a closer look

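The effect of cold on Mrc1 differed between the populations by 0.87 on the log2 scale (M2 minus M1; SE 0.17, edgeR adjusted p = 0.0384), which a test of the difference itself called. In M1 its level fell from 1703 ± 21.5 to 985 ± 199 CPM, and in M2 it was 5761 ± 122 CPM in Warm and 6293 ± 483 in Cold (SD, n = 3). The call was lost without any of 7 of the 12 libraries. Progenitor RNA was higher in Cold M1 (1.81% to 5.10% of counts, against 0.353% to 1.27% in Warm M1). On a scale set by genes low in progenitors Mrc1 still fell in Cold M1, by 0.49 on the log2 scale, and was called.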

How the results depend on the processing

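Of 110 member results, 50 were called, 45 of these under each alternative other than leaving out a library, and 41 also without each library in turn. Among results called in the main fit or in the alternative, the one that changed sign was Mrc1 for bFKB1 against Cold in M1. It was -0.051 on the scale of macrophage core genes. Some values called in neither fit changed sign too, such as Cbr2 in that comparison, 0.12 in the main fit and as low as -0.26. That scale moved the median of all genes by up to 0.56 (M1 against M2 in Cold), and the scale of genes low in progenitors by up to 0.35. The calls of M1 against M2 (10 members lower) stood under each alternative. Where counts of calls moved by over 1.5 times, the cause was not tested.

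Scaling on genes low in progenitors gave 3 members lower in Cold M1, 724 genes in Cold M2, 195 for the difference of cold effects with 1 member lower, 1 member higher in bFKB1 M1, and for bFKB1 against Cold 0 members higher in M1 and 236 genes in M2. Scaling on core genes gave 851 genes in Cold M2, 72 for the difference of cold effects, 6746 and 1 member higher in bFKB1 M1, 2681 and 2 members lower in bFKB1 M2, 2 genes for the difference of bFKB1 effects, and for bFKB1 against Cold 9107 genes in M1 (0 members higher, 1 lower) and 277 in M2 (2 members lower). DESeq2 gave 1474 genes for the difference of cold effects (2 members higher, 1 lower), 77 for that of bFKB1 effects (1 and 1) and 2 members lower in bFKB1 M2. A fit of all 18 macrophage libraries gave 1077 genes for the difference of cold effects (2 members higher, 1 lower). Fits of only the groups compared gave 3796 genes and 3 members lower in Cold M1, 2538 and 2 members higher in Cold M2, 1604 in bFKB1 M1, 1854 and 2 members lower in bFKB1 M2, and 1 gene with 0 members higher for bFKB1 against Cold in M1. For bFKB1 against Cold in M2, no filter gave 368 genes and a fit of Cold and bFKB1 only 151.

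With the replicate number as a block, the difference of cold effects called 73 genes in place of 300, and Cbr2 in bFKB1 M1 was -0.62 (edgeR adjusted p = 0.0581). The block changed no other call of a member.

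Leaving out each library in turn gave 3 to 5 members lower in Cold M1, 531 to 937 genes and 0 to 0 members lower in Cold M2 (1312 genes and 1 member with all), and 23 to 1982 genes, 0 to 3 members higher and 0 to 1 lower for the difference of cold effects. It gave 1449 to 3809 genes and 1 to 2 members higher in bFKB1 M1, 394 to 553 genes and 0 to 1 members higher in bFKB1 M2 (1052 genes with all), and 0 to 46 genes with 0 to 1 members either way for the difference of bFKB1 effects. For bFKB1 against Cold it gave 1309 to 3962 genes and 0 to 1 members higher in M1, and 27 to 787 genes and 0 to 1 members lower in M2. Ratios between relatives, with 1 count added or without each library, chosen after the data were seen, kept their signs, with the Mgl2 to Clec10a difference from -2.26 to -1.18 over its 4 comparisons. Cd209g in M1, at 0.390 to 1.17 CPM, is where depth limits most.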
